A study of Mus musculus with 9 samples.

Results

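The genes of mitochondrial fatty acid oxidation, ketone body use and the peroxisome proliferator-activated receptors (PPARs) were followed in cultured mouse astrocytes. They were picked by gene symbol from a list of pathway members that sets no threshold on measured values, and all 35 of 35 were among the 18061 genes listed. The 9 libraries came from primary cortical astrocyte cultures of wild-type C57BL/6 pups at postnatal day 1. Each group had 3 biological replicates by title. Every culture, controls included, spent its final 1 day in glucose-free medium. Cultures of the Aβ plus acetate group were exposed to amyloid-beta (Aβ) at 1 µM over 5 days, with sodium acetate at 10 mM over the final 1 day. Those of the acetate group received the same acetate without Aβ, and control cultures received neither agent. No group received Aβ without acetate, so Aβ alone was not analysed here.

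Mitochondria burn fatty acids by β-oxidation. The carnitine shuttle carries the acyl chain across the mitochondrial membranes, and repeated rounds of dehydrogenation, hydration, dehydrogenation and thiolysis then release acetyl-CoA. Electrons from the first of these steps pass through the electron transfer flavoprotein to the respiratory chain. Ketone bodies, made mainly in liver, are turned back into acetyl-CoA by another short route. PPARs are lipid-sensing nuclear receptors that switch on many of these genes in liver, heart and muscle, and in brain the astrocyte is the main cell type known to oxidise fatty acids.

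In these cultures no gene of the group passed the test in any treatment comparison, whereas 25 of 35 (71.4%) differed between the library sets described next, a share close to the 70.6% of all genes tested. In set 2, 21 of 35 (60%) were lower, beside 32.3% of all genes tested, and 4 (11.4%) were higher, beside 38.4%. The lower ones included genes of carnitine transfer, acyl-CoA dehydrogenation, thiolysis and ketone use. The acyl-CoA thioesterase gene Acot2 was 8.80-fold higher in set 2.

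The libraries split into a pair of sets by the naming style of their library names. What distinguishes the sets is not stated in the labels. Set 2 holds Aβ plus acetate 2 and 3, acetate 2 and 3, and control 3. Set 1 holds Aβ plus acetate 1, acetate 1, and controls 1 and 2. Of the 14058 genes tested, 70.6% differed between the sets. All 13 tested genes of the amino acid stress response and all 12 endoplasmic reticulum chaperone genes were higher in set 2. The stress transcription factor gene Ddit3 averaged 685 CPM, counts per 1000000 reads, in set 2 and 16.0 in set 1. The summed astrocyte markers were 11913 to 14448 CPM in set 2 and 10635 to 12068 in set 1, with 6 of 14 tested markers higher and 8 lower. Of the 15 astrocyte markers 1 stayed under 1 CPM in all 9 libraries, the connexin gene Gjb6. Markers of other cells differed as well. The summed microglia markers were 310 to 502 CPM in set 2 and 77.1 to 208 in set 1, with 13 of 14 higher and 1 lower. The summed fibroblast and meningeal markers were 414 to 541 CPM in set 2 and 1791 to 2125 in set 1, with 10 of 12 lower. The summed oligodendrocyte lineage markers were 244 to 372 CPM in set 2 and 777 to 1009 in set 1, with 4 of 11 higher and 4 lower. Neuron markers summed to 477 to 526 CPM in set 2 and 524 to 636 in set 1, with 3 of 7 higher and 2 lower. Endothelial markers summed to 35.8 to 52.3 CPM in set 2 and 39.2 to 46.6 in set 1. Single endothelial markers moved in opposite directions, with 1 of 3 tested higher and 2 lower, and Pecam1, Cdh5 and Tek were under 1 CPM throughout. None of the measured markers was at 0 in all libraries. The part these cells and the stress response have in the values below was not tested. In bulk RNA, fewer cells of a type and less RNA per cell cannot be told apart.

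Levels of different genes were compared per kilobase of annotated exon. That length joins the exons of all annotated transcripts, 8730 bases for Hadha, 8286 for Echs1 and 2005 for Acadl. Where the cells use shorter transcripts the value is too low, so the order is approximate. Over all 9 libraries Oxct1, the enzyme gene that lets a tissue burn ketone bodies, was the highest of the 35 at 131 CPM per kb. Acadl followed at 59.2, Etfa at 51.8, Acot2 at 48.4, Acadm at 35.3 and Cpt1a at 32.9 CPM per kb. Among the receptors and coactivators, Ppard at 4.03, Ppara at 3.06 and Ppargc1b at 0.50 CPM per kb were low. Ppargc1a stood at 12.2, close to Hadhb at 12.5 and above Etfdh at 9.65. Angptl4 was the lowest at 0.356. By library set the order was not fixed. Acot2 stood at 79.9 CPM per kb in set 2, against 9.08 in set 1, and Cpt1a at 26.3 in set 2, against 41.1 in set 1.

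The series asked how acetate, with and without Aβ, changes gene expression in astrocytes without glucose. No gene of the group passed the test for acetate against control, beside 0% of the 14058 genes tested (limma on log2(CPM + 1), set as a covariate, adjusted p under 0.05). At an unadjusted p under 0.05 there were 453 genes, 1 of them a member, Ppargc1b. The members' median log2 difference was 0.03, beside -0.02 for all genes tested. The fitted difference, with the set as a covariate, was above 0 for 28 members and below 0 for 7. The same split was not counted over all genes. Leaving out single libraries moved it, from 18 above and 17 below without acetate 2 to 29 and 6 without acetate 3. Without the set term the fitted difference was above 0 for 11 and below 0 for 24, with 0 calls with or without that term. In set 2 are 2 of 3 acetate libraries and 1 of 3 controls. The fit with the set term takes the acetate difference as equal in both sets. Under it, the 95% interval lay within 0.5 log2 units of no change for 33 of 35. They include Ucp2, whose acetate difference was 0.57 within set 2 and -0.66 within set 1. For the difference between the sets in the acetate effect, 12 of 35 intervals lay within 0.5. In the fit with the set term, the difference for Cpt1a, which encodes the rate-limiting carnitine acyltransferase, was 0.06 (95% interval -0.13 to 0.25). For Pdk4, a kinase gene that PPARs induce in muscle and liver to spare glucose, it was -0.09 with an interval of -0.28 to 0.10.

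Ppargc1b, which encodes a coactivator that drives mitochondrial gene expression, was the member with the smallest unadjusted p. It had 2.53, 1.86 and 2.03 CPM with Aβ plus acetate, 2.41, 2.49 and 2.30 CPM with acetate, and 1.74, 1.44 and 1.15 CPM in controls 1, 2 and 3. Every acetate-treated library lay above every control, although the gene was one of the lowest expressed of the group. The log2 difference for acetate against control was 0.54 ± 0.13 (SE), with an unadjusted p of 0.0017 and a limma adjusted p of 1.0. For Aβ plus acetate against control it was 0.42 ± 0.13, with an unadjusted p of 0.0084 and a limma adjusted p of 0.999. Both comparisons use the same controls. The acetate difference was 0.66 within set 2 and 0.40 within set 1, and the Aβ plus acetate difference was 0.45 within each. Groups without overlap, with acetate higher, were found for this member alone, beside 0.612% of all genes tested.

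The addition of Aβ to acetate was compared with acetate alone. Again 0 members passed the test, beside 0% of all genes, with 436 genes and 0 members at an unadjusted p under 0.05. The members' median log2 difference was 0.03, beside 0.02 for all genes, and 34 of 35 intervals lay within 0.5 log2 units of no change. The member with the smallest unadjusted p was Bdh1, the mitochondrial enzyme gene that interconverts the ketone bodies hydroxybutyrate and acetoacetate. Its values were 79.6, 58.0 and 64.1 CPM with Aβ plus acetate and 65.4, 57.1 and 56.7 CPM with acetate. The groups overlapped, with a log2 difference of 0.16 ± 0.08 (SE) and a limma adjusted p of 1.0.

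For Aβ plus acetate against control, 0 members passed, beside 0% of all genes, with 505 genes at an unadjusted p under 0.05. This comparison shares its controls with the acetate comparison and its treated libraries with the Aβ comparison. The members' median log2 difference was 0.07, beside -0.005 for all genes, and 32 of 35 intervals lay within 0.5 log2 units of no change. Groups did not overlap for 2 members, both higher, beside 1.53% of all genes. One was Ppargc1b. The other was Plin2, whose protein coats lipid droplets and which PPARs induce, with 86.3, 95.6 and 99.96 CPM with Aβ plus acetate and 83.2, 83.1 and 81.3 CPM in controls. The log2 difference of Plin2 was 0.12 ± 0.10 (SE), with a limma adjusted p of 0.999.

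**Figure D1:**
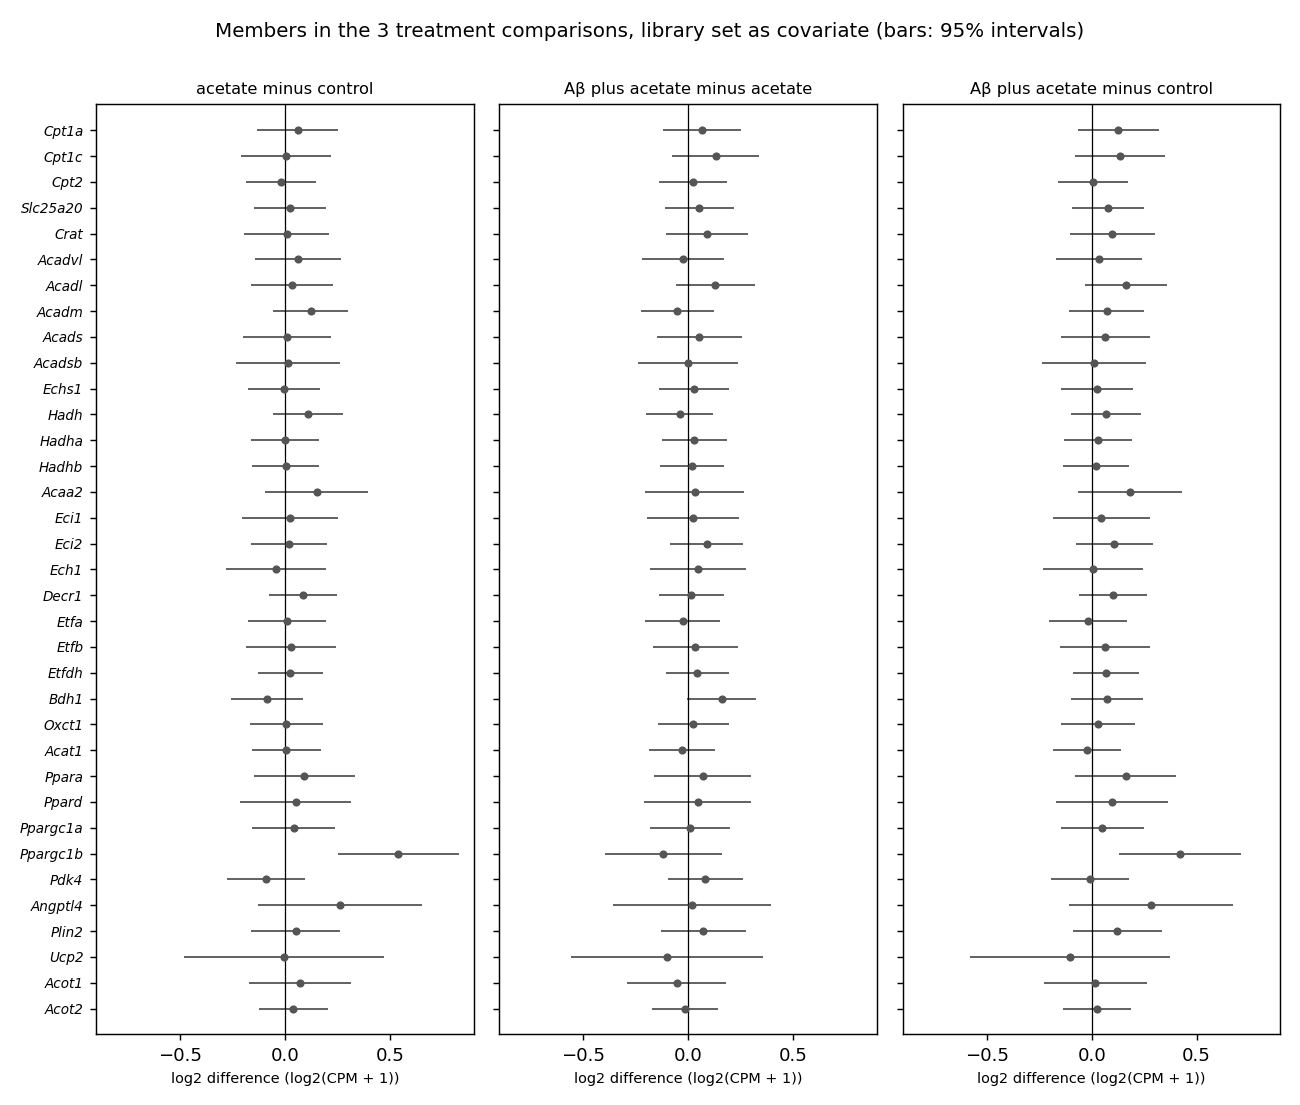
Log2 differences of the 35 genes on the log2(CPM + 1) scale in the 3 treatment comparisons, with the library set as a covariate. Points are limma estimates and bars are 95% intervals. In the acetate comparison 33 of the 35 intervals lie within 0.5 of 0, and only the interval of Ppargc1b excludes 0.

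The acetate effect was also read within each set. The members' median acetate difference was 0.08 in set 2 and -0.03 in set 1, beside -0.004 and -0.05 for all genes tested. Of the members, 25 of 35 had opposite signs in the sets, a count that was not made over all genes. The test of the difference between sets called 0 members and 0% of all genes for each of the 3 treatment comparisons. Ucp2, the gene for an uncoupling protein of the inner mitochondrial membrane, showed the largest divergence of the 35. In set 2 it had 28.3 and 23.1 CPM with acetate and 17.0 in the control. In set 1 it had 9.52 CPM with acetate and 16.0 and 15.3 in controls. The acetate libraries thus lay above the control in set 2 and below both controls in set 1. The acetate difference was 1.23 larger in set 2 on the log2 scale, with a limma adjusted p of 0.24. Angptl4, a secreted inhibitor of lipoprotein lipase and a classical PPAR target, had 1.32 and 1.15 CPM with acetate and 0.394 in the control of set 2. In set 1 it had 1.30 CPM with acetate and 1.53 and 1.67 in controls. Its difference between sets was 0.86, with a limma adjusted p of 0.46. Each of these within-set values rests on 1 or 2 libraries a group.

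**Figure D2:**
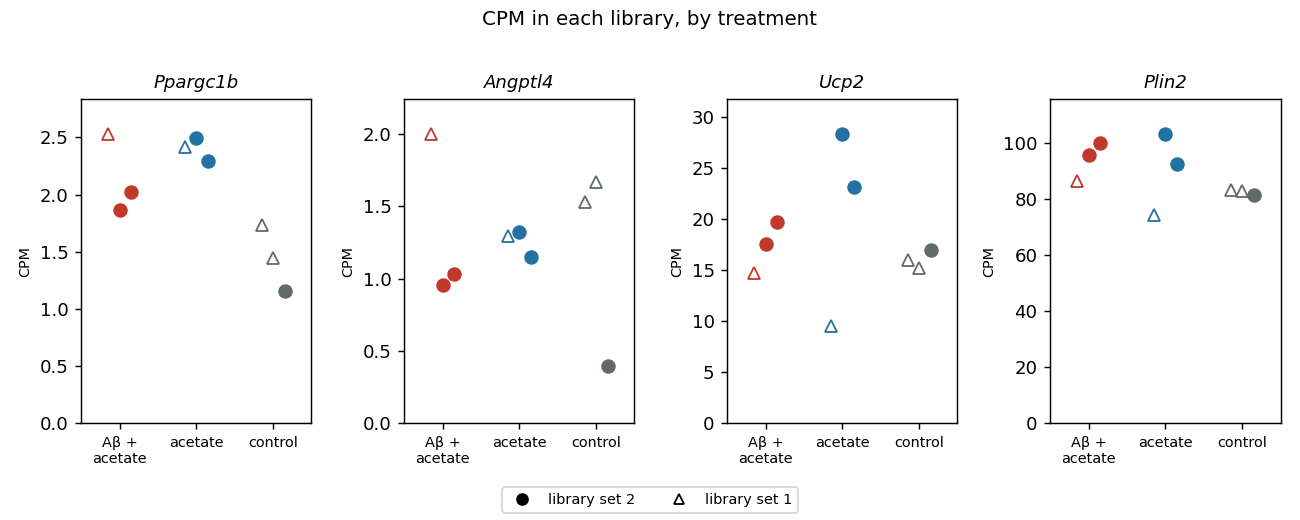
CPM of 4 genes in each library, by treatment, with library set 2 as filled circles and set 1 as open triangles. Ppargc1b lies lowest in the 3 controls, at 1.15 to 1.74 CPM, and the acetate libraries of Ucp2 stand at 23.1 and 28.3 CPM in set 2 and 9.52 CPM in set 1.

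Between the library sets, members moved mainly one way. In set 2, 21 of 35 members (60%) were lower, beside 32.3% of all genes tested, and 4 (11.4%) were higher, beside 38.4% of all genes. The members' median log2 difference was -0.24, with quartiles of -0.56 and -0.02. All genes tested had a median of 0.05, with quartiles of -0.35 and 0.44. Of the members, 16 had no overlap between sets and were lower in set 2 (background 29.5%), and 4 had no overlap and were higher (background 34.1%). All 25 members past the threshold had the same direction of difference within Aβ plus acetate, within acetate and within control libraries. The same libraries gave the calls, so this agreement is no separate support. Some of these differences were near 0, such as Eci2 at -0.03 and Angptl4 at -0.04 within acetate. Summed over the 35 genes, set 2 averaged 2901 CPM and set 1 averaged 3270. Leaving out each library in turn left 17 to 22 members lower and 3 to 5 higher.

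**Figure D3:**
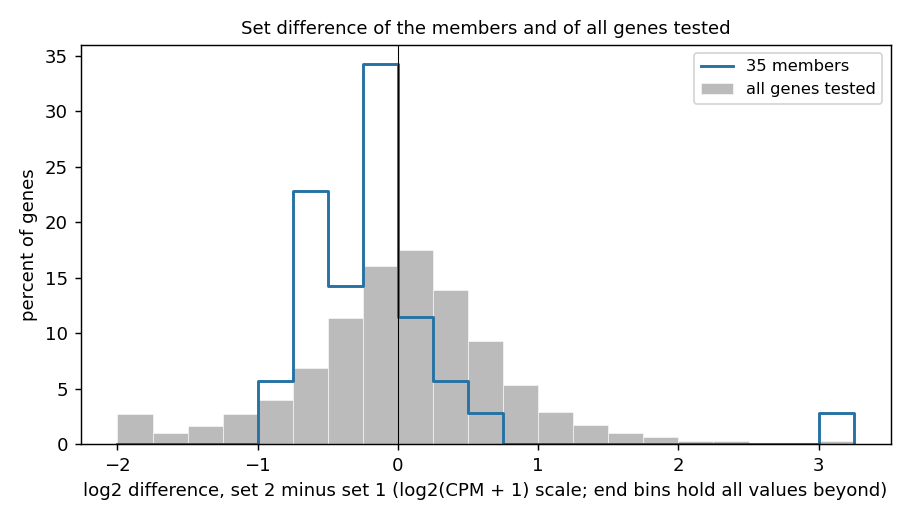
Distribution of the log2 difference, set 2 minus set 1, for the 35 genes (line) and for all 14058 genes tested (filled), as percent of genes per bin. The members' median is -0.24 and that of all genes 0.05, and Acot2 stands alone at 3.07.

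The carnitine shuttle was lower in set 2 in 4 of 5 genes. The background for this and the later counts by role is the 32.3% of all genes lower and 38.4% higher. Values of set 2 are given in the order Aβ plus acetate 2 and 3, acetate 2 and 3, control 3, and those of set 1 in the order Aβ plus acetate 1, acetate 1, controls 1 and 2. Cpt1a had 212, 216, 210, 190 and 175 CPM in set 2, and 313, 311, 315 and 318 CPM in set 1. No library of one set reached the other, and the log2 difference was -0.68 ± 0.07 (SE; limma adjusted p 6.9e-06). Cpt2, the matching transferase on the matrix side, averaged 31.9 ± 1.08 CPM in set 2 and 49.8 ± 0.668 CPM in set 1 (SD, n = 5 and 4). Its difference was -0.63. Crat, which makes acetylcarnitine and so buffers acetyl-CoA, had 64.9, 64.6, 66.7, 54.8 and 55.7 CPM in set 2, and 102, 97.1, 106 and 98.2 CPM in set 1. The sets stood well apart, with a log2 difference of -0.73 ± 0.08 (limma adjusted p 6.3e-06). The carnitine-acylcarnitine carrier Slc25a20 differed by -0.24. Cpt1c, a brain-enriched relative with little transferase activity, averaged 92.5 ± 9.65 CPM in set 2 and 96.3 ± 5.59 CPM in set 1, a difference of -0.08 with a 95% interval of -0.26 to 0.09.

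Of the acyl-CoA dehydrogenases, each of which starts the cycle on chains of a given length, 4 of 5 were lower in set 2. The short-chain enzyme Acads had 24.8, 24.0, 25.3, 21.4 and 21.4 CPM in set 2, and 44.1, 43.2, 47.7 and 43.0 CPM in set 1. Every set 2 library was below every set 1 library, and the log2 difference was -0.91 ± 0.08 (limma adjusted p 1.3e-06). Differences were smaller for the very-long-chain enzyme Acadvl (-0.34), the medium-chain enzyme Acadm (-0.25) and the long-chain enzyme Acadl (-0.21). The sets overlapped for Acadm and Acadl. Acadl missed the threshold without control 2 (-0.16) or control 3 (-0.11), and Acadm without Aβ plus acetate 1 (-0.22). Acadsb, which serves branched chains from isoleucine, averaged 198 ± 10.3 CPM in set 2 and 198 ± 24.3 CPM in set 1.

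In the steps that follow, 3 of 5 genes were lower. The hydroxyacyl-CoA dehydrogenase gene Hadh averaged 76.9 ± 4.98 CPM in set 2 and 101 ± 1.04 CPM in set 1 (SD), a log2 difference of -0.42. Acaa2, the thiolase that ends the cycle, had 33.5, 32.3, 37.9, 27.4 and 27.1 CPM in set 2, and 51.0, 49.7, 46.9 and 47.2 CPM in set 1. There was no overlap, with a difference of -0.67 ± 0.09 (SE; limma adjusted p 5.9e-05). The subunits of the trifunctional protein, which carries out these steps on long chains, were unequal in this comparison. The α subunit gene Hadha differed by -0.24 (180 ± 6.08 CPM in set 2, 212 ± 3.71 CPM in set 1). The β subunit gene Hadhb differed by -0.02 with a 95% interval of -0.15 to 0.11. The difference between the subunits was not tested. The hydratase Echs1 differed by 0.09 with an interval of -0.05 to 0.24. Among the enzymes that prepare unsaturated chains, Ech1 (-0.61), Decr1 (-0.29) and Eci2 (-0.17) were lower and Eci1 (0.12) did not pass. Eci2 lost its call in 6 of 9 leave-outs, with differences of -0.18 to -0.12: without control 2, control 3, acetate 3 or any one of the Aβ plus acetate libraries.

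The electron transfer genes split. Etfb, the β subunit of the flavoprotein that takes electrons from the dehydrogenases, had 28.6, 27.9, 30.9, 26.6 and 25.4 CPM in set 2, and 50.8, 45.9, 52.9 and 46.8 CPM in set 1. Its log2 difference was -0.81 ± 0.08 (SE; limma adjusted p 3.8e-06), with no overlap. Etfdh, the ubiquinone oxidoreductase that receives these electrons, averaged 57.4 ± 2.07 CPM in set 2 and 91.2 ± 2.20 CPM in set 1, a difference of -0.67. The α subunit gene Etfa went the other way. It had 95.6, 103, 109, 103 and 105 CPM in set 2, and 88.8, 82.2, 78.8 and 89.7 CPM in set 1. Again the sets did not overlap, with a difference of 0.28 ± 0.07 (limma adjusted p 0.0039). All 3 kept their calls in every leave-out. With a replicate block by title number beside the set, Etfa lost its call, and Etfb and Etfdh kept theirs.

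All 3 ketone enzymes were lower in set 2. Acat1, the mitochondrial acetoacetyl-CoA thiolase, which also acts in isoleucine breakdown, had 48.7, 51.5, 51.2, 53.3 and 51.2 CPM in set 2, and 86.8, 84.9, 82.9 and 90.5 CPM in set 1. These narrow groups were well separated, with a log2 difference of -0.74 ± 0.06 (SE; limma adjusted p 9.7e-07). Bdh1 averaged 58.7 ± 3.08 CPM in set 2 and 73.3 ± 5.91 CPM in set 1, a difference of -0.31. Oxct1, which commits acetoacetate to oxidation, averaged 455 ± 7.01 CPM in set 2 and 527 ± 28.9 CPM in set 1, a difference of -0.22. Oxct1 lost its call without Aβ plus acetate 1 (-0.19).

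Among the receptors and coactivators, 1 of 4 was higher in set 2 and 1 was lower. Ppara, the receptor that governs fatty acid oxidation in liver, had 14.0, 13.7, 12.2, 13.6 and 13.5 CPM in set 2, and 10.5, 10.5, 9.31 and 8.26 CPM in set 1. The sets did not overlap, and the log2 difference was 0.40 ± 0.09 (SE; limma adjusted p 0.0020). Ppard, the widely expressed receptor, averaged 27.7 ± 3.3 CPM in set 2 and 33.4 ± 2.98 CPM in set 1, a difference of -0.29. Its sets overlapped, and it lost its call without control 3 (-0.16) or acetate 3 (-0.26). The coactivator gene Ppargc1a differed by -0.14 with a 95% interval of -0.30 to 0.03, and it passed without control 1 (-0.18) or with quantile scaling (-0.19). Ppargc1b differed by -0.18 with an interval of -0.42 to 0.06.

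**Figure D4:**
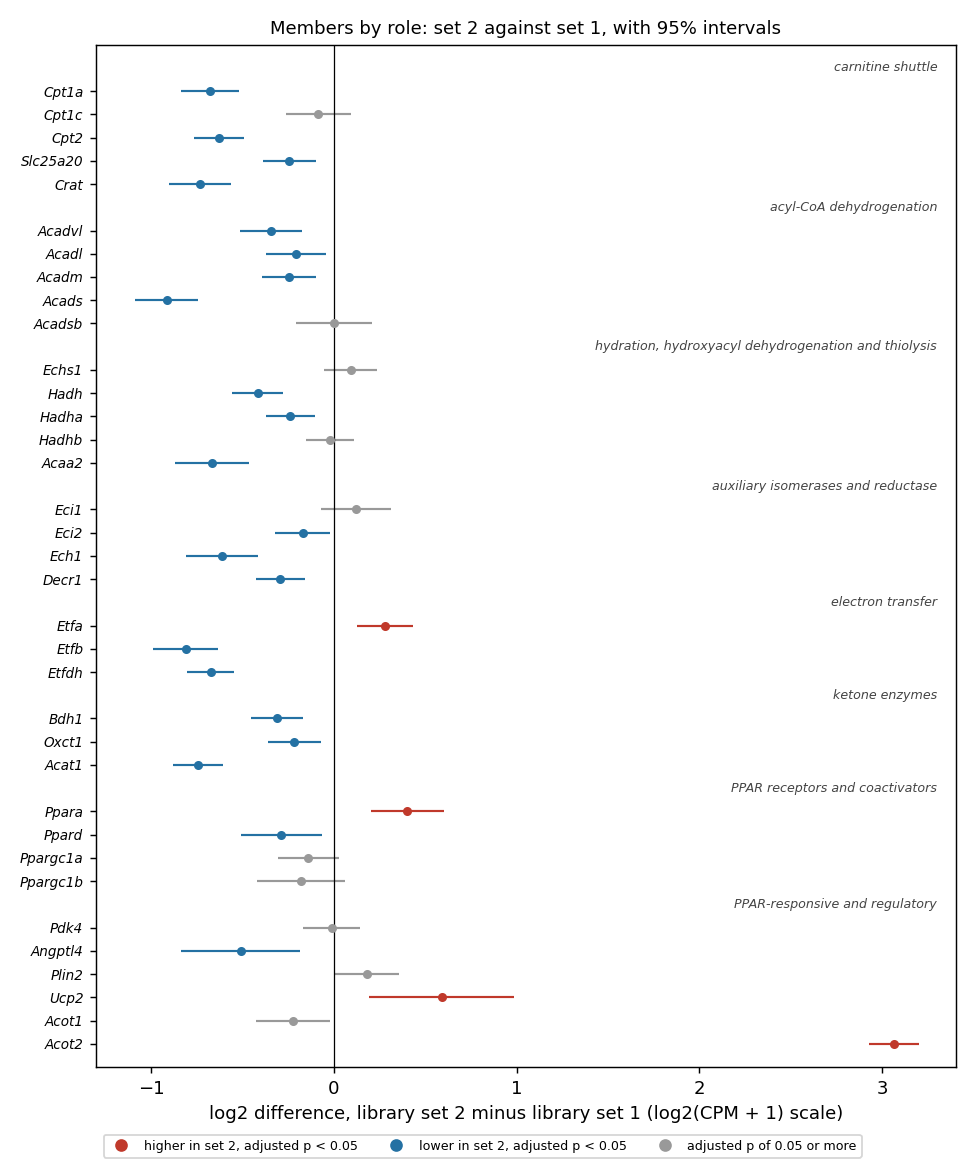
Log2 difference of each of the 35 genes, set 2 minus set 1, on the log2(CPM + 1) scale, by role, with 95% intervals. Red points passed the threshold as higher in set 2 (4 genes), blue as lower (21 genes), and grey points did not pass. Acot2 lies at 3.07 and Acads, the lowest, at -0.91.

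Of the 6 PPAR-responsive and regulatory genes, 2 were higher in set 2, Acot2 and Ucp2, and 1 was lower, Angptl4. Pdk4 averaged 31.6 ± 1.62 CPM in set 2 and 32.2 ± 1.81 CPM in set 1, a log2 difference of -0.01 with a 95% interval of -0.17 to 0.14. Plin2 differed by 0.18 and did not pass (limma adjusted p 0.062), but did so without control 1 (0.20) or control 3 (0.29). A fit without the treatment group term called it too. Angptl4 differed by -0.51, at 0.970 ± 0.350 CPM in set 2 and 1.62 ± 0.294 CPM in set 1. It lost its call without control 3 (-0.31), the library with 0.394 CPM, or without Aβ plus acetate 1 (-0.47). Ucp2 averaged 21.1 ± 4.68 CPM in set 2 and 13.9 ± 2.96 CPM in set 1, a difference of 0.59 ± 0.18 (SE; limma adjusted p 0.012). Without acetate 1, its lowest library, the Ucp2 difference was 0.22 and the call was lost.

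Acot2 encodes a mitochondrial thioesterase that frees long-chain fatty acids from CoA. Its values were 176, 174, 181, 174 and 172 CPM in set 2, and 20.0, 20.2, 20.9 and 18.6 CPM in set 1. Whatever the treatment, every library of set 2 lay far above every library of set 1. The log2 difference between sets was 3.07 ± 0.06 (SE; limma adjusted p 3.4e-11), the 40th highest of 14058 genes. Acot1, the gene for a cytosolic thioesterase of the same family, had 79.7, 90.03, 105, 80.7 and 83.8 CPM in set 2, and 104, 99.4, 109 and 92.4 CPM in set 1. The sets overlapped, and the difference was -0.22 ± 0.09, just short of the threshold (limma adjusted p 0.050). Acot1 did pass with median-of-ratios or quantile scaling, and without acetate 2 or control 2, with differences of -0.29 to -0.25. It also passed in a fit without the treatment group term.

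**Figure D5:**
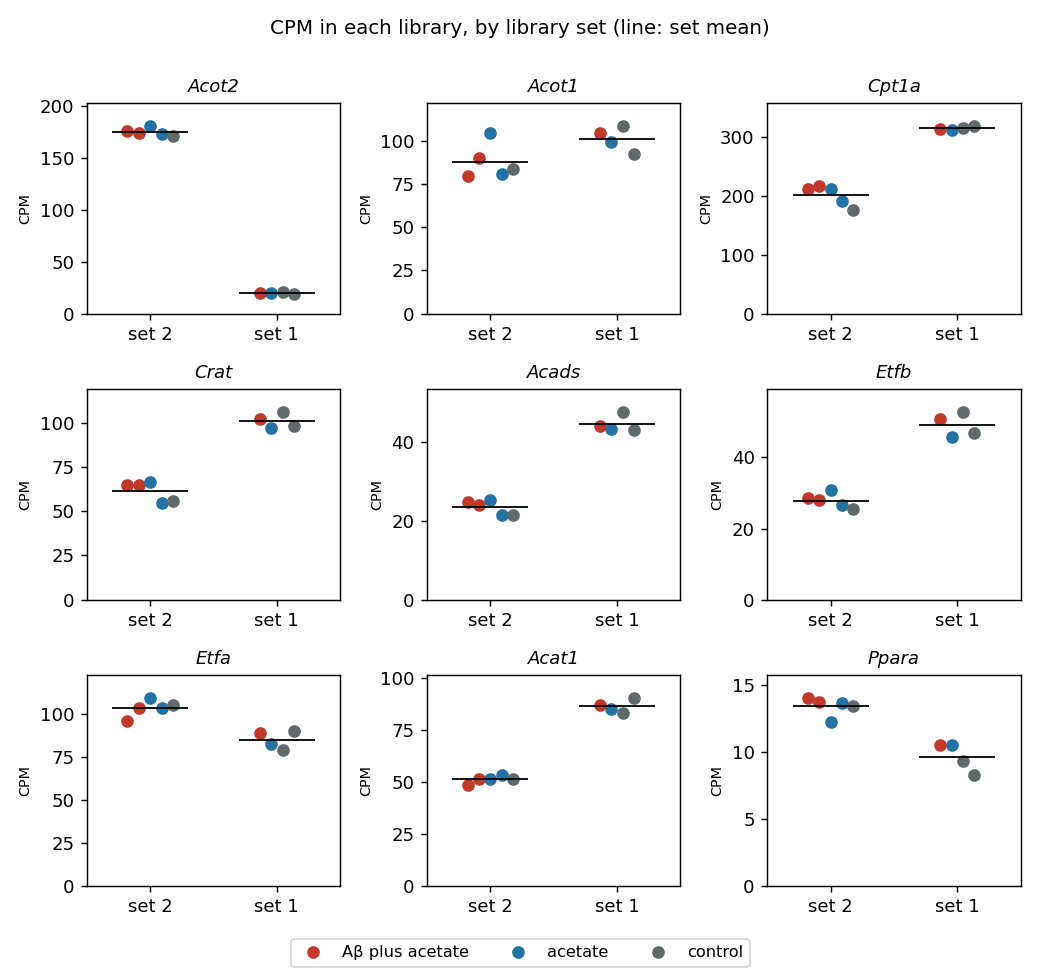
CPM of 9 genes in each library, set 2 left of set 1, coloured by treatment, with a line at the set mean. Acot2 stands at 172 to 181 CPM in set 2 and 18.6 to 20.9 CPM in set 1, whereas the values of its neighbour Acot1 overlap between the sets.

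Acot2 (chromosome 12, 83987861 to 83993876, plus strand) and Acot1 (chromosome 12, 84009502 to 84017670, plus strand) are neighbours on mm10 and near copies of each other. Their annotated coding sequences were 95.3% identical over 1236 aligned bases, with a longest identical run of 273 bases. Of the 100-base windows of the Acot2 transcript, 17.1% also occurred in Acot1, and 16.5% the other way. How reads from such windows were assigned is not given in the sources used here, so the split of reads between both genes is uncertain. Their sum, added after the data were seen, averaged 263 ± 13.3 CPM in set 2 and 121 ± 7.88 CPM in set 1 (SD, n = 5 and 4), a log2 difference of 1.10 ± 0.07 (SE; limma adjusted p 1.2e-07). The family members Acot3 and Acot4 were listed under 1 CPM in every library. The stretch of 90 coding bases that differs most is shown because reads there can be told apart. It lies at chr12:83992638-83992727 in Acot2 and chr12:84016916-84017005 in Acot1 (mm10, plus strand, GENCODE M21), and capitals mark the 14 bases that differ.
Acot2: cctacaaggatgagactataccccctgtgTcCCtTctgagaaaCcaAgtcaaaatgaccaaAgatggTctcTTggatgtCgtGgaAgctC
Acot1: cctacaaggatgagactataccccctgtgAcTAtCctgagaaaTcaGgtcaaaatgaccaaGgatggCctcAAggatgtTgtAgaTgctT

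Promoter sequence was read beside these values. The 250 bases before each start are shown for Acot2 (chr12:83987611-83987860), Acot1 (chr12:84009252-84009501) and Cpt1a (chr19:3323051-3323300), all plus strand, from RefSeq on GRCm38.p6. Acot2 and Cpt1a had the largest CPM differences between sets in opposite directions, and Acot1 stands for comparison. Capitals mark matches to the nuclear receptor motif AGGTCA on either strand.
Acot2: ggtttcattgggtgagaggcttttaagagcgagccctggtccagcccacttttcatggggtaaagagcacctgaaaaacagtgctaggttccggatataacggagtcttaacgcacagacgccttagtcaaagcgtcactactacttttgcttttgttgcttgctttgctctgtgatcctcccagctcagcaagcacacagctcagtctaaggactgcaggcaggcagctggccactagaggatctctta
Acot1: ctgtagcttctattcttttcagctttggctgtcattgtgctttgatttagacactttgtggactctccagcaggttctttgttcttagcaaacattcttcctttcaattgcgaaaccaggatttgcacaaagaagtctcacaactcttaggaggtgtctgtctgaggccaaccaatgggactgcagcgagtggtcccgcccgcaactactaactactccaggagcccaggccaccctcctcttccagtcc
Cpt1a: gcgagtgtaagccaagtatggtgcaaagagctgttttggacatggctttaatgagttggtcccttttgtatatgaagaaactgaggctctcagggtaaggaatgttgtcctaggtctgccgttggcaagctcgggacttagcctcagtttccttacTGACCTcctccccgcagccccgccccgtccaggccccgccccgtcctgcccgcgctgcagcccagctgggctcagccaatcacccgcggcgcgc

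The Cpt1a promoter held 1 AGGTCA, on the minus strand, at position -94 from the start, and those of Acot2 and Acot1 held none. RefSeq promoters of 300 bases, 250 before to 50 after the start, were matched for 29 of the 35 genes, 30 promoters in all. AGGTCA on either strand occurred in 20% of these promoters, those of Acadm, Acadvl, Cpt1a, Cpt1c, Echs1 and Plin2, beside 16.3% of 32851 promoters. The PPAR response element AGGTCANAGGTCA, which contains that motif at both ends, occurred in 0 of the 30 and in 0.0396% of all promoters. The estrogen-related receptor element TCAAGGTCA, which overlaps AGGTCA, occurred in 0 of the 30 and in 0.423% of all. The core of the amino acid response element, TGATGNAA, occurred in 1, that of Echs1, and in 3.97% of all. These matches are letters in a window and not measured binding.

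Other genes of the same pathways were read from lists of textbook members. In the 3 treatment comparisons 0 of the listed genes passed the test. Between the sets, peroxisomal β-oxidation, which shortens very long chains, had 3 of 17 tested genes higher and 6 lower in set 2. The bifunctional peroxisomal enzyme gene Hsd17b4 averaged 124 ± 4.68 CPM in set 2 and 177 ± 5.94 CPM in set 1 (SD), a log2 difference of -0.51. It was lower in set 2, and the branched-chain oxidase gene Acox2 was higher, differing by 0.91. Of the fatty acid activation genes, 3 of 11 were higher and 4 lower, among them the short-chain acyl-CoA synthetase gene Acss3 at 1.09 and the fatty acid transport protein gene Slc27a4 at -0.85. Of the further acyl-CoA dehydrogenases, 2 of 7 were higher and 4 lower, with Ivd of leucine breakdown at -0.50 and Acad10 at 1.05.

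Genes of carnitine supply and of malonyl-CoA, the inhibitor of carnitine transfer, had 4 of 8 higher and 2 lower. Slc22a4, an organic cation transporter, averaged 67.9 ± 3.41 CPM in set 2 and 25.2 ± 2.22 CPM in set 1 (SD), a log2 difference of 1.39. Aldh9a1 and Bbox1, which act in carnitine synthesis, differed by 0.56 and 1.89. Acacb, which makes malonyl-CoA at mitochondria, differed by 0.86. Of the other ketone genes, 1 of 8 was higher and 3 lower. Slc16a1, a carrier of lactate, ketone bodies and other monocarboxylates, averaged 434 ± 8.54 CPM in set 2 and 208 ± 19.2 CPM in set 1, a difference of 1.04. Aacs, a cytosolic synthetase that turns acetoacetate to lipid synthesis, differed by -0.88.

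PPAR partners and coregulators had 12 of 18 higher and 2 lower. The coactivator gene Ncoa1 averaged 148 ± 6.41 CPM in set 2 and 82.0 ± 7.98 CPM in set 1 (SD), a log2 difference of 0.85. It was higher in set 2, as was the acetyltransferase gene Ep300 at 0.72. Pparg differed by 0.21 and did not pass, at 1.25 ± 0.391 CPM in set 2 and 0.894 ± 0.176 CPM in set 1. Of further PPAR targets, 5 of 12 were higher and 3 lower. Among them Lpl, lipoprotein lipase, differed by 0.97, the lipase inhibitor gene G0s2 by 1.10 and the pantetheinase gene Vnn1 by -2.64. Lipid droplet genes had 4 of 11 higher and 2 lower, with the triglyceride synthesis gene Dgat2 at 0.79 and the lipase genes Mgll at -0.88 and Pnpla2 at -0.42. Relatives of Pdk4 and Ucp2 had 3 of 8 higher and 3 lower, with the mitochondrial carrier gene Slc25a30 at 0.97, the kinase gene Pdk2 at -0.80 and the phosphatase gene Pdp1 at 0.60. The background for the counts of each list is the 38.4% of all genes higher and 32.3% lower.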

How the data were processed

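RNA from 9 libraries was poly(A)-selected and sequenced as paired 100-base reads, per the labels' protocols. Tools listed in the submitters' processing notes are STAR 2.7.3a, Partek and FastQC, and builds listed are GRCm39 and mm10, with no roles given. The authors deposited CPM (counts per 1000000 reads) for 18061 genes. The authors also deposited a score per gene, not used here. All 35 deposited positions overlapped GENCODE M21 (mm10). Depth, read from the commonest low CPM, came to 22160000 to 57030000 reads per library. As 93.3 to 94.3% of values of at most 20 reads were whole within 0.1, counts were not rebuilt, and count models were left out.

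Genes with CPM of at least 1 in at least 3 libraries (14058, all 35 members) were fitted as log2(CPM + 1) with limma 3.58.1 in R 4.3.3. Terms were group and library set, over all 9 libraries, with a trended, robust prior. Fold changes on this scale understate changes of low genes. Tests were two-sided and adjusted by Benjamini-Hochberg over all genes. A check on simulated data required calls only for the largest shifts planted, so it does not show that small shifts would be called. Interaction terms tested differences between sets. P-values measure the spread between biological replicates as titled. In the comparison of the library sets, that spread is between libraries within a set, after the group term. The sets themselves have no replicates. The p-values of the set calls therefore do not show whether these differences would recur in other such sets. Members and lists were chosen with earlier results of these data known. All members were described. Of each other list, genes were named among the 4 with the smallest unadjusted p. Exceptions, chosen after their values were seen, are Pparg, Olig1, Mbp, Map2 and the markers under 1 CPM. Some genes of these lists are not reported here.

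Library sets come from the naming style of library names. Same-numbered library names deviated together in 7 of 7 pairs (r 0.761 to 0.947) with the group removed. With the set removed also, they did so in 0 of 7 (r -0.499 to -0.105). All 7 pairs lie within a set, and removing group and set from 9 libraries itself pushes r below 0. These values therefore cannot show whether a pairing exists, and no pairing beyond the set was used in the main fit. Alternatives covered scaling, pseudocount, filter, prior, set term, treatment group term, replicate block and leave-outs.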

Additional observations from a re-analysis of the deposited data

Results flagged for a closer look

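Among 70 combinations of a gene and a library set, 2 held a library apart from the rest of its set, as judged by the gap to the nearest library over the whole range. Chance gives about 1 in 20. Acadm was highest in acetate 2 of set 2, at 143 CPM, with the nearest library at 127 and a gap of 0.792 of the range. Bdh1 was highest in Aβ plus acetate 3 of set 2, at 64.1 CPM, with the nearest at 58.0 and a gap of 0.827. Treatment groups of 3 are too small for this rule.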

How the results depend on the processing

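No direction of a called difference was reversed by any alternative. The treatment comparisons called 0 genes and 0 members under every alternative run. Leaving out single libraries gave member medians of 0.0019 to 0.068 for acetate against control, 0.0041 to 0.072 for Aβ plus acetate against acetate, and 0.020 to 0.079 for Aβ plus acetate against control. Without the set term the members' medians were -0.03 for acetate against control and 0.00 for Aβ plus acetate against control. Using the replicate block by library-name number in place of the set, the medians were 0.07, 0.03 and 0.09 in the order of these comparisons, with 0 calls. For set 2 against set 1, a replicate block by title number beside the set left 4746 genes (2528 higher, 2218 lower) and 10 members (1 higher, 9 lower), where only title number 2 spans both sets. Title numbers gave r over 0.1 in 7 of 9 pairs and, with the set removed, in 1 of 9. Removing group and set from so few libraries itself lowers r. These values therefore cannot decide whether same-titled libraries share more than a number. Leave-outs gave 8763 to 10095 genes, 21 to 27 members and member medians of -0.26 to -0.22. Median-of-ratios scaling gave 4 members higher and 22 lower, and quantile scaling 4 and 23. The cause of these moves was not tested. Depth limits only the lowest members, Angptl4 and Ppargc1b, at 0.394 to 2.53 CPM. What the library sets differ in besides their names cannot be told apart here.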
